A study of Mus musculus with 6 samples.

Results

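The DNA replication genes described here are 40 genes that license origins, open and copy DNA at the replication fork, supply nucleotides, join and package the new strands, or start S phase. They were chosen by gene symbol from a fixed list, with earlier results of these data known. All 40 were found among the 24453 symbols of each count file. RNA was sequenced from 6 libraries of the back skin of newborn mice at postnatal day 0. 3 libraries were labelled Ring1a-/- Ring1b-/- (double knockout, dKO) and 3 were labelled control. All 6 came from epidermal cells sorted as EpCAM-positive and Sca1-positive with high α6-integrin, a gate for interfollicular epidermis that enriches its progenitors. The genes Ring1 and Rnf2 encode Ring1a and Ring1b, the catalytic ubiquitin ligases of Polycomb repressive complex 1, which silences developmental genes and marks histone H2A. The sources used here do not give the driver of the deletion, the alleles of the control mice or whether each library came from a separate animal. P-values therefore measure the spread between these libraries alone, part of which may be technical.

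DNA replication starts when the origin recognition complex, Cdc6 and Cdt1 load the MCM helicase onto DNA before S phase. Cdc45 and the GINS complex then join MCM to form the active helicase, and polymerases, the sliding clamp Pcna and its loader RFC copy both strands. Most of these genes are transcribed by E2F factors as cells pass from G1 to S phase, so in epidermis their transcripts mark the dividing basal cells and decline as keratinocytes differentiate.

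K1, K2 and K3 stand for dKO-labelled replicates 1 to 3, and C1, C2 and C3 for control-labelled replicates 1 to 3. The libraries held 18951665 to 31187270 counts. Ring1 had 1.66, 5.20 and 14.2 CPM (counts scaled to a common depth by TMM library sizes) in K1, K2 and K3, against 30.9, 17.1 and 3.90 CPM in C1, C2 and C3. In replicate 3 the order was thus against the labels, so each library is named by its label. Rnf2 had 55.4, 64.1 and 59.0 CPM in K1, K2 and K3, against 43.2, 63.2 and 47.5 CPM in C1, C2 and C3. The sources used here do not say which bases of either gene were deleted, so counts over the whole gene check no label. The first principal component (57.8% of the variance) put K1, K2 and K3 at 73.3, 51.6 and 43.8. On it C1, C2 and C3 lay at -65.9, -48.0 and -54.8, so replicate 3 lay with its labels. Libraries K1 and C1 stood apart from the others on the second principal component (19.0%), at 51.1 and 39.5, with the others between -30.8 and -10.3. Whether any library was mislabelled was not tested. Basal keratins were abundant in every library, with Krt5 at 15665 to 20133 CPM in dKO-labelled and 18578 to 28244 CPM in control-labelled libraries.

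Most DNA replication genes had a lower level in the dKO-labelled than in the control-labelled libraries, and for 5 of the 40 the decrease passed the test. Mcm4 of the helicase core, Gins1 and Gins2 of the GINS complex, and Pola1 and Prim1 of the polymerase that primes each new strand fell by 0.87 to 1.23 on the log2 scale. edgeR called 5 lower and 0 higher at an adjusted p under 0.05, while 2.98% of all 14890 tested genes (444) were called lower and 7.17% (1068) higher. With an offset for GC content and length the split over all genes was 701 lower and 922 higher, and 4 members were called lower (4.71% of all genes). No member was higher at an unadjusted p under 0.05, against 14.5% of all tested genes. DESeq2 called 7 members lower and 0 higher (4.42% and 8.47% of all genes in its test), and limma-voom called the same 5 as edgeR lower and 0 higher (3.22% and 7.35%). The log2 fold change was below 0 in 37 of the 40, against 7440 of all 14890 tested genes, and the members' median was -0.55, against 0.00 for all tested genes. In 18 members every dKO-labelled library was below every control-labelled library, whereas 14.8% of all tested genes did not overlap in that direction. Unadjusted, 14 of the 40 members were lower at p under 0.05, against 9.86% of all tested genes. In bulk samples, fewer cells in S phase and less RNA of these genes per cell cannot be told apart.

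**Figure D1:**
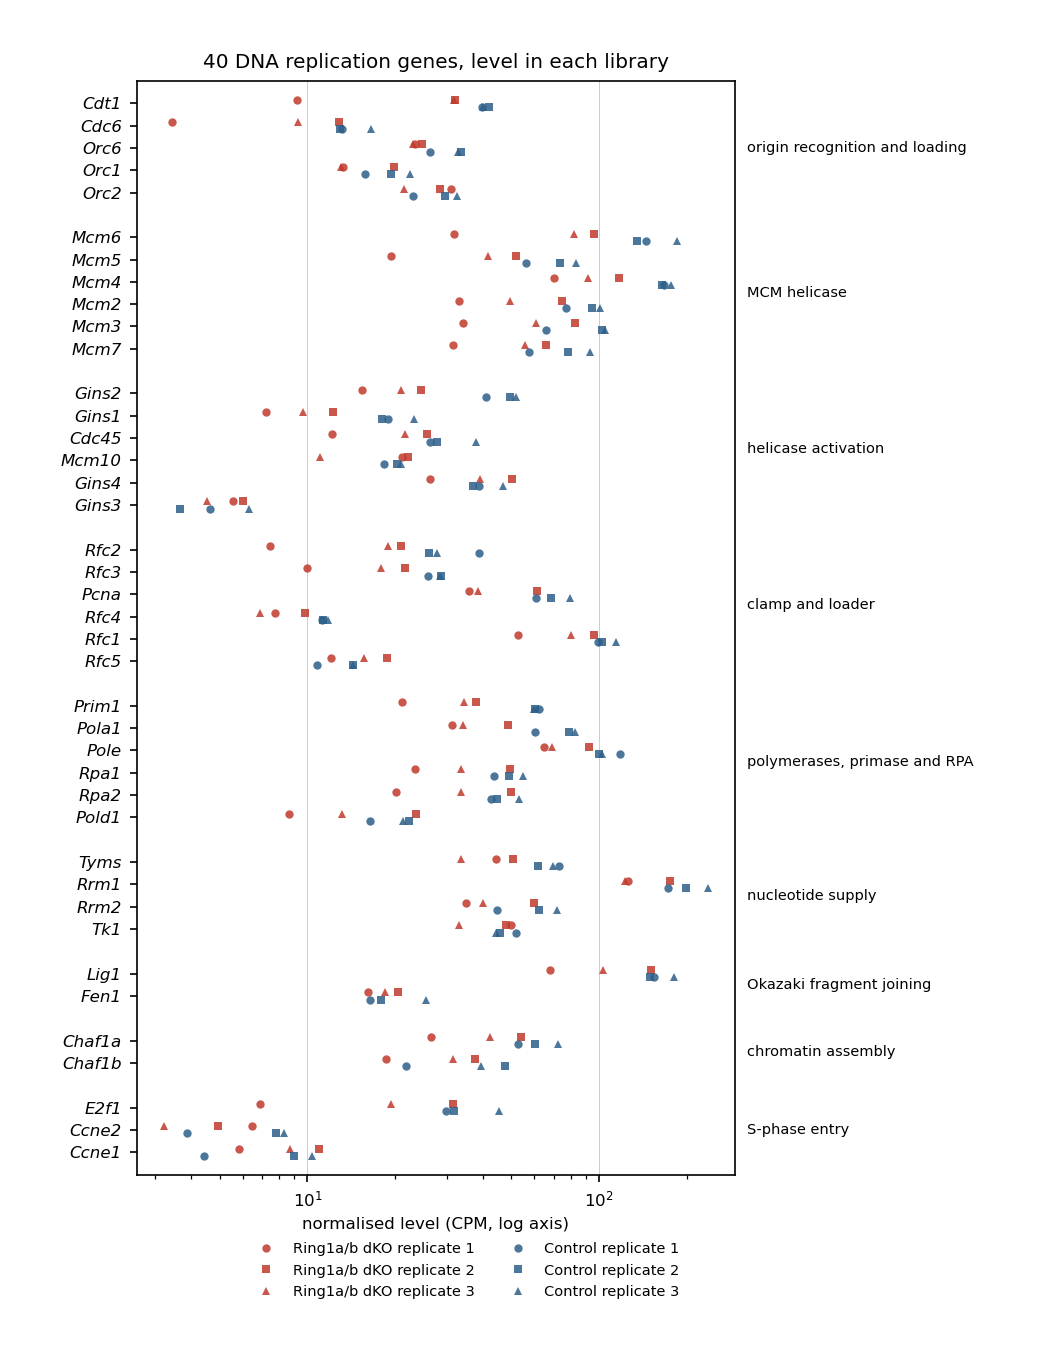
Normalised level (CPM, log axis) of each of the 40 DNA replication genes in the 3 dKO-labelled libraries (red) and the 3 control-labelled libraries (blue), by role, with symbols for replicates 1 to 3. For Gins2 the dKO-labelled libraries lay at 15.3 to 24.5 CPM and the control-labelled libraries at 41.0 to 51.9 CPM.

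Summed over the 40 genes, replication transcripts came to 1086, 1918 and 1437 CPM in K1, K2 and K3, against 2048, 2237 and 2528 CPM in C1, C2 and C3. The mean of the dKO-labelled libraries was 65.2% of that of the control-labelled libraries. The sums of the groups did not overlap, but K2 lay only just below C1. K1 was the lowest of all 6 libraries for 28 members and K3 for 9. C3 was the highest of the 6 for 26 members. Within the dKO-labelled group K2 was the highest library for 37 members, and the spread was wider there, with a median coefficient of variation over the members of 30.9%, against 14.8% in the control-labelled group. K1 and K2 differed from each other by more than the means of the 2 groups did.

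The number of calls changed with single libraries. The count of members called lower was 4 without K1, 3 without K2 and 1 without K3, where 2.85%, 1.13% and 1.60% of all genes were called lower. It was 2 without C1, 1 without C2 and 0 without C3, beside 1.84%, 1.75% and 1.19% of all genes. The count of members lower at an unadjusted p under 0.05 in edgeR ran from 8 without C3 to 26 without K2. Over all genes these were 1136 of 15274 without C3 and 1176 of 15335 without K2. DESeq2 and limma-voom were not run without single libraries. Without K1, the library with the least replication RNA, Gins2, Mcm4, Mcm6 and Prim1 were called. With replicates 1 and 2 of each group alone, which leaves out the replicate where Ring1 went against the labels, 0 were called by edgeR (0.570% of all genes were called lower), with 3 at an unadjusted p under 0.05, and DESeq2 and limma-voom were not run on that subset. With replicates 2 and 3 alone, which leaves out the libraries that stood apart, 7 were called lower, the same 5 with Mcm5 and Mcm6 (7.10% of all genes were called lower). There 19 members were lower at an unadjusted p under 0.05 in edgeR, beside 2069 of all 14945 genes. The median log2 fold change of the members was -0.36 without K1 and -0.80 without K2, and -0.46 and -0.45 with replicates 1 and 2 alone and with replicates 2 and 3 alone.

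The promoters of the members were read for motifs of transcription factors. Most genes of this kind are E2F targets, so a high share of E2F words comes with their choice. It is not a result of these libraries. E2F factors bind words of the form TTTCCCGC, TTTGGCGC, TTTCGCGC or TTTGCCGC. RefSeq promoters on GRCm38.p6, from 250 bases before to 50 bases after a start, were matched by symbol for 33 members. The promoters of Ccne2, Gins1, Gins2, Gins4, Mcm4, Pole and Rfc2 were not analysed here. On either strand, with overlapping matches allowed, 12 of these 33 (36.4%) held such a word in at least 1 promoter, against 4.44% of the 11306 tested genes with a promoter and 2.61% of all 27025 genes with one. CCAAT, the motif of NF-Y, was held by 21 of the 33 (63.6%), against 42.2% of the tested genes. A match is a description of the letters and not of binding. The 12 members with an E2F word had a median log2 fold change of -0.68 and ran from -1.15 to 0.14. The 21 without one had a median of -0.47 and ran from -0.97 to 0.23. Gins1, Gins2 and Mcm4, which edgeR called lower, are in neither set because their promoters were not analysed. Whether the word goes with the fold change was not tested.

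Printed here are 200 bases upstream of Mcm6 and Mcm5, whose promoters hold several words, of Pola1 and Prim1, which fell, and of Rfc5, which had the highest log2 fold change of the members. The stretches of Mcm6, Mcm5 and Pola1 end at the base before the RefSeq start. Those of Prim1 and Rfc5 end 48 and 25 bases before it, where the GENCODE gene begins. Capitals mark the E2F words on either strand. The Mcm6 stretch is chr1:128359706-128359905 (minus strand), with words that begin 110, 106 and 47 bases before the RefSeq start. That of Mcm5 is chr8:75109309-75109508 (plus strand), with words that begin 153 and 149 bases before it. In both, the first pair of words overlaps and runs in opposite directions. Pola1 is shown at chrX:93632156-93632355 (minus strand), with 1 word 138 bases before the start. Prim1, at chr10:128014968-128015167 (plus strand), and Rfc5, at chr5:117389048-117389247 (minus strand), held none in these windows.
Mcm6: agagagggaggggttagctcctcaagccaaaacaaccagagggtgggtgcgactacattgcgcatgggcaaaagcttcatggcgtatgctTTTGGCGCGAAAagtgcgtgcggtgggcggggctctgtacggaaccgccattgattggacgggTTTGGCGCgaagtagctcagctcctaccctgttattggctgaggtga
Mcm5: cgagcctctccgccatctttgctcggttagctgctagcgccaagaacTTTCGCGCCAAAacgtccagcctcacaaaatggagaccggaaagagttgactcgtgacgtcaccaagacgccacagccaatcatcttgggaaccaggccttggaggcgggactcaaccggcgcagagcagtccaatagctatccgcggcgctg
Pola1: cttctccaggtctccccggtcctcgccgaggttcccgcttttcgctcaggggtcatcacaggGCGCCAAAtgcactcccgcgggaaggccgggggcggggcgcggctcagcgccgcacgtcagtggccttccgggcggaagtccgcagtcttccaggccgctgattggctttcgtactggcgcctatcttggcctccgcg
Prim1: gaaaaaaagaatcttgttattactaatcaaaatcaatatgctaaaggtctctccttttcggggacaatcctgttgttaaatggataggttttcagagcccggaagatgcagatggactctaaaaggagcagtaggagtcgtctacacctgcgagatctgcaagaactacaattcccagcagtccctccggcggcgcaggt
Rfc5: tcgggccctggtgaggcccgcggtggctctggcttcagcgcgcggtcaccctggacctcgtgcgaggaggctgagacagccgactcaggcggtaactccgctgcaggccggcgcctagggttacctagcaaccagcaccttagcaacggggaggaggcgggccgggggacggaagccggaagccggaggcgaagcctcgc

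Origin recognition and loading. None of the 5 genes passed edgeR's test (edgeR adjusted p = 0.281 to 0.895), and none was below an unadjusted p of 0.05, called by DESeq2 or called by limma-voom. Cdt1, which brings MCM to the origin, had 9.21, 32.0 and 31.7 CPM in K1, K2 and K3, against 39.7, 41.8 and 40.1 CPM in C1, C2 and C3. The groups did not overlap, but K1 stood far below K2 and K3, and the log2 fold change was -0.74 ± 0.41 (SE, n = 3 each; adjusted p = 0.318 in edgeR). Cdc6, the loading ATPase, had 3.43, 12.9 and 9.29 CPM in K1, K2 and K3, against 13.1, 12.9 and 16.5 CPM in C1, C2 and C3. It showed the same order, with K1 lowest and K2 next to C2. Orc6, a subunit of the origin recognition complex, had 23.3, 24.7 and 23.0 CPM in K1, K2 and K3, against 26.3, 33.6 and 32.8 CPM in C1, C2 and C3. Its 3 dKO-labelled libraries were close together and below the control-labelled ones by a small step, with a log2 fold change of -0.39 ± 0.20. For Orc1, the largest subunit, the log2 fold change was -0.32, and for Orc2 it was -0.07 with a 95% interval of -0.61 to 0.46, and their groups overlapped.

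The MCM helicase. All 6 subunits of the ring had a log2 fold change below 0, from -1.15 to -0.58, and Mcm4 passed. Mcm4 lies on the minus strand of chromosome 16 at 15623897 to 15637400 (GRCm38). It had 69.8, 117 and 91.7 CPM in K1, K2 and K3, against 167, 165 and 176 CPM in C1, C2 and C3. The control-labelled libraries were close together and all dKO-labelled libraries lay well below them. The log2 fold change was -0.87 ± 0.21 (SE, n = 3 each; adjusted p = 0.0326 in edgeR), and the call was lost without C1, C2, C3 or K3 (edgeR adjusted p = 0.0661 to 0.114). Mcm6 had 31.7, 95.9 and 81.8 CPM in K1, K2 and K3, against 145, 135 and 185 CPM in C1, C2 and C3. Its log2 fold change of -1.15 ± 0.37 was the largest decrease of the ring and did not pass, with K1 far below K2 and K3 (edgeR adjusted p = 0.0871). It passed without K1 (log2 fold change -0.80, edgeR adjusted p = 0.0429), in DESeq2 (adjusted p = 0.0184) and in edgeR with no count filter (adjusted p = 0.0480). Mcm5 had 19.3, 51.7 and 41.5 CPM in K1, K2 and K3, against 56.0, 73.4 and 83.5 CPM in C1, C2 and C3. Mcm2 averaged 52.4 ± 21.0 CPM in dKO-labelled and 90.7 ± 12.2 CPM in control-labelled libraries (SD, n = 3 each). Neither group pair overlapped, and neither gene passed (edgeR adjusted p = 0.140 and 0.132 for Mcm5 and Mcm2). For Mcm3 and Mcm7 K2 lay above C1, and the log2 fold changes were -0.62 and -0.58. The ring holds each subunit once, and per kb of the principal transcript the subunits' levels ran from 11.1 (Mcm5) to 25.8 (Mcm4) CPM per kb in dKO-labelled and from 21.0 (Mcm5) to 53.2 (Mcm6) CPM per kb in control-labelled libraries.

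Helicase activation. The changes within this group were uneven: Gins1 and Gins2 fell, and the other members did not pass. The 4 GINS proteins form a complex with each subunit once. Gins2 lies on the minus strand of chromosome 8 at 120578633 to 120589304. It had 15.3, 24.5 and 20.9 CPM in K1, K2 and K3, against 41.0, 49.6 and 51.9 CPM in C1, C2 and C3. Every control-labelled library was well above every dKO-labelled one. Its log2 fold change of -1.23 ± 0.23 (SE, n = 3 each; adjusted p = 0.0128 in edgeR) was the largest decrease of the 40, and the call was lost only without C3 among the libraries left out singly (edgeR adjusted p = 0.0584). In the annotation 67.3% of the exonic bases of Gins2 also belong to Gse1 on the opposite strand, and the sources used here do not give the strand setting of the counting. Gse1 itself had 219, 141 and 188 CPM in K1, K2 and K3, against 275, 200.4 and 189 CPM in C1, C2 and C3, which overlap (edgeR adjusted p = 0.502). How many of the reads came from which strand was not tested. Gins1, whose exons no other gene overlaps, lies on the plus strand of chromosome 2 at 150905400 to 150931280. It had 7.20, 12.3 and 9.65 CPM in K1, K2 and K3, against 18.9, 18.1 and 23.2 CPM in C1, C2 and C3. Its groups were also apart, with a log2 fold change of -1.05 ± 0.28 (SE; adjusted p = 0.0478 in edgeR), but the call was lost when any 1 of the 6 libraries was left out (edgeR adjusted p = 0.0703 to 0.173) and with the replicate number as a block (edgeR adjusted p = 0.0595).

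Gins4 and Gins3 did not pass the test. Gins4 had 26.4, 50.2 and 38.9 CPM in K1, K2 and K3, against 38.7, 36.8 and 47.0 CPM in C1, C2 and C3, with a log2 fold change of -0.09 and a 95% interval of -0.67 to 0.50. Gins3 had 5.57, 6.02 and 4.52 CPM in K1, K2 and K3, against 4.65, 3.67 and 6.33 CPM in C1, C2 and C3. Its log2 fold change was 0.14, with a 95% interval of -0.72 to 0.99. Both genes overlapped between the groups, and both intervals also hold the members' median of -0.55. Ratios within a library do not depend on how libraries are scaled, and 15 ratios of subunit or gene pairs were formed after the values were seen, so they are given with no test. The ratio of Gins1 to Gins4 counts was 0.273, 0.244 and 0.248 in K1, K2 and K3, against 0.488, 0.490 and 0.494 in C1, C2 and C3. That ratio was nearly constant within each group although the level of each gene varied. The ratio of Gins2 to Gins4 was 0.581, 0.489 and 0.536 in K1, K2 and K3, against 1.06, 1.35 and 1.11 in C1, C2 and C3. Per kb, Gins4 was the most abundant GINS transcript at 28.5 CPM per kb in dKO-labelled and 30.3 CPM per kb in control-labelled libraries, and Gins3 the least at 2.13 and 1.94 CPM per kb in the same order of groups. The level of Gins2 per kb is uncertain because of the shared exons. Cdc45, the partner of GINS in the active helicase, had 12.1, 25.7 and 21.5 CPM in K1, K2 and K3, against 26.4, 27.9 and 37.9 CPM in C1, C2 and C3, lower in all 3 but not past the test (edgeR adjusted p = 0.248). Mcm10, which helps to start the helicase, had a log2 fold change of -0.14 with a 95% interval of -0.81 to 0.53.

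**Figure D2:**
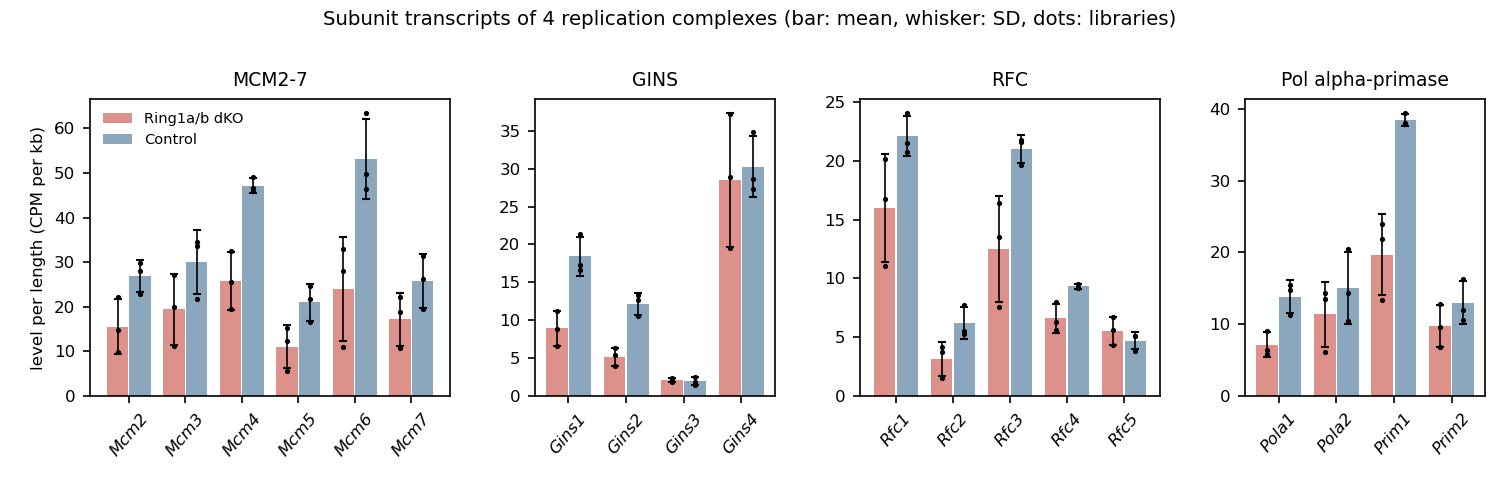
Level per length (CPM per kb of the principal transcript) of the subunits of the MCM ring, GINS, the clamp loader RFC and polymerase alpha-primase in dKO-labelled (red) and control-labelled (blue) libraries, with bars for the mean, whiskers for the SD of 3 libraries and dots for libraries. Gins4 stood at 28.5 and 30.3 CPM per kb in dKO-labelled and control-labelled libraries, while Gins1 stood at 8.92 and 18.4 CPM per kb.

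The clamp and its loader. None of the 6 genes was called by edgeR, DESeq2 or limma-voom, while 3 were lower at an unadjusted p under 0.05. Pcna, the sliding clamp, had 35.9, 61.3 and 38.4 CPM in K1, K2 and K3, against 60.7, 68.2 and 79.5 CPM in C1, C2 and C3. Only K2 reached the control-labelled range, and the log2 fold change was -0.62 ± 0.25 (SE; adjusted p = 0.163 in edgeR). Rfc2, a small subunit of the loader, had 7.44, 20.9 and 18.8 CPM in K1, K2 and K3, against 38.8, 26.2 and 27.8 CPM in C1, C2 and C3. Rfc3, another small subunit, had 9.93, 21.6 and 17.8 CPM in K1, K2 and K3, against 25.8, 28.7 and 28.5 CPM in C1, C2 and C3. In both, K1 was far below every other library and the groups did not overlap, with log2 fold changes of -0.98 and -0.75 (edgeR adjusted p = 0.153 and 0.160). Rfc1, the large subunit, and Rfc4, a small one, had log2 fold changes of -0.47 and -0.50, also with no overlap. Rfc5 had 12.05, 18.7 and 15.6 CPM in K1, K2 and K3, against 10.8, 14.3 and 14.3 CPM in C1, C2 and C3. Its log2 fold change of 0.23 was the highest of the 40, with a 95% interval of -0.38 to 0.85. The ratio of Rfc3 to Rfc5 was 0.825, 1.15 and 1.14 in K1, K2 and K3, against 2.39, 2.01 and 1.99 in C1, C2 and C3.

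Polymerases, primase and RPA. Pola1 and Prim1 fell, and the other 4 genes had log2 fold changes of -0.50 to -0.41 that did not pass. Pola1, the catalytic subunit of polymerase alpha, lies on the minus strand of chromosome X at 93304767 to 93632155. It had 31.4, 48.7 and 34.1 CPM in K1, K2 and K3, against 60.2, 78.9 and 82.9 CPM in C1, C2 and C3. The groups were apart, with a log2 fold change of -0.96 ± 0.23 (SE, n = 3 each; adjusted p = 0.0343 in edgeR). The call was lost without C2, C3, K1 or K3 (edgeR adjusted p = 0.0686 to 0.130). Pola1 is X-linked, and Xist, the RNA that coats an inactive X, had 6133, 4736 and 4.48 CPM in K1, K2 and K3, against 10.5, 6.91 and 1757 CPM in C1, C2 and C3. K3, C1 and C2 had little Xist, and there Pola1 stood at 34.1, 60.2 and 78.9 CPM. With the Xist level as a covariate Gins2 was the 1 member still called (1.17% of all genes were called lower). In that fit the members' median log2 fold change was -0.63, and 38 of the 40 were below 0, against 7537 of all 14890 tested genes. There Pola1 had a log2 fold change of -1.04 (edgeR adjusted p = 0.0648). Prim1, the catalytic subunit of primase, lies on the plus strand of chromosome 10 at 128015168 to 128030037. It had 21.1, 37.9 and 34.5 CPM in K1, K2 and K3, against 62.3, 60.2 and 59.9 CPM in C1, C2 and C3. The control-labelled libraries were almost equal and each dKO-labelled library was lower by far more than their spread, with a log2 fold change of -0.97 ± 0.24 (SE; adjusted p = 0.0387 in edgeR). The call was lost without C1, C2, C3, K2 or K3 (edgeR adjusted p = 0.0610 to 0.115).

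The other subunits of the same polymerase alpha-primase complex, from the list of further replication factors, did not pass. Pola2, its regulatory B subunit, averaged 27.5 ± 11.0 CPM in dKO-labelled and 36.5 ± 12.2 CPM in control-labelled libraries, and Prim2, the large primase subunit, 19.3 ± 5.79 and 25.6 ± 5.93 CPM in the same order (SD, n = 3 each). Each had a log2 fold change of -0.41, with overlapping groups. The ratio of Pola1 to Prim1 was 1.49, 1.29 and 0.989 in K1, K2 and K3, against 0.966, 1.31 and 1.38 in C1, C2 and C3, so the 2 catalytic subunits were at similar proportions in both groups. Pole, the catalytic subunit of the leading-strand polymerase, had 64.9, 92.0 and 69.0 CPM in K1, K2 and K3, against 118, 99.7 and 103 CPM in C1, C2 and C3. All 3 were lower, by a log2 fold change of -0.50 ± 0.19 that did not pass (edgeR adjusted p = 0.149). Pold1, the catalytic subunit of polymerase delta, and Rpa1 and Rpa2, which coat single-stranded DNA, overlapped between the groups, with K2 within or above the control-labelled range.

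Nucleotide supply. None of the 4 genes was called by edgeR, though 2 were lower at an unadjusted p under 0.05, and DESeq2 called Tyms and limma-voom none. Tyms, thymidylate synthase, had 44.2, 50.5 and 33.7 CPM in K1, K2 and K3, against 72.7, 61.5 and 69.4 CPM in C1, C2 and C3. The groups did not overlap, with a log2 fold change of -0.67 ± 0.21 (SE; adjusted p = 0.0799 in edgeR). Rrm1, the large subunit of ribonucleotide reductase, had 126, 175 and 122 CPM in K1, K2 and K3, against 173, 198 and 236 CPM in C1, C2 and C3, with K2 just inside the control-labelled range. Rrm2, its small subunit, had a log2 fold change of -0.41. The ratio of Rrm2 to Rrm1 was 0.278, 0.340 and 0.328 in K1, K2 and K3, against 0.259, 0.315 and 0.305 in C1, C2 and C3, with no separation of the groups. Tk1, the salvage kinase for thymidine, had 49.8, 48.0 and 33.1 CPM in K1, K2 and K3, against 51.8, 45.5 and 44.3 CPM in C1, C2 and C3. Only K3 was low, and the log2 fold change of -0.11 had a 95% interval of -0.60 to 0.37.

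Joining, packaging and S-phase entry. None of these 7 genes was called by edgeR, DESeq2 or limma-voom, and none was at an unadjusted p under 0.05 in edgeR. Lig1, the ligase that seals Okazaki fragments, had 67.7, 150.5 and 103 CPM in K1, K2 and K3, against 154, 149 and 180.1 CPM in C1, C2 and C3. K1 and K3 were below the control-labelled range and K2 was inside it. Fen1, the flap nuclease, had a log2 fold change of -0.12, and 78.8% of its annotated exonic bases are shared with an opposite-strand gene. Chaf1a, the large subunit of the histone chaperone CAF-1, averaged 40.9 ± 13.7 CPM in dKO-labelled and 61.7 ± 9.95 CPM in control-labelled libraries (SD, n = 3 each), and 52.5% of its exonic bases are shared with Ubxn6. Chaf1b, its middle subunit, averaged 29.3 ± 9.72 and 36.2 ± 13.2 CPM in the same order. E2f1, the transcription factor of S-phase entry, had 6.89, 31.5 and 19.4 CPM in K1, K2 and K3, against 29.8, 31.9 and 45.5 CPM in C1, C2 and C3. K1 was far below every other library and K2 was within the control-labelled range, and the log2 fold change of -0.89 ± 0.47 did not pass (edgeR adjusted p = 0.288). Ccne1 and Ccne2, the cyclins E that activate Cdk2, were low in all libraries, at 3.22 to 11.0 CPM in dKO-labelled and 3.86 to 10.4 CPM in control-labelled libraries, with log2 fold changes of 0.10 and -0.45.

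**Figure D3:**
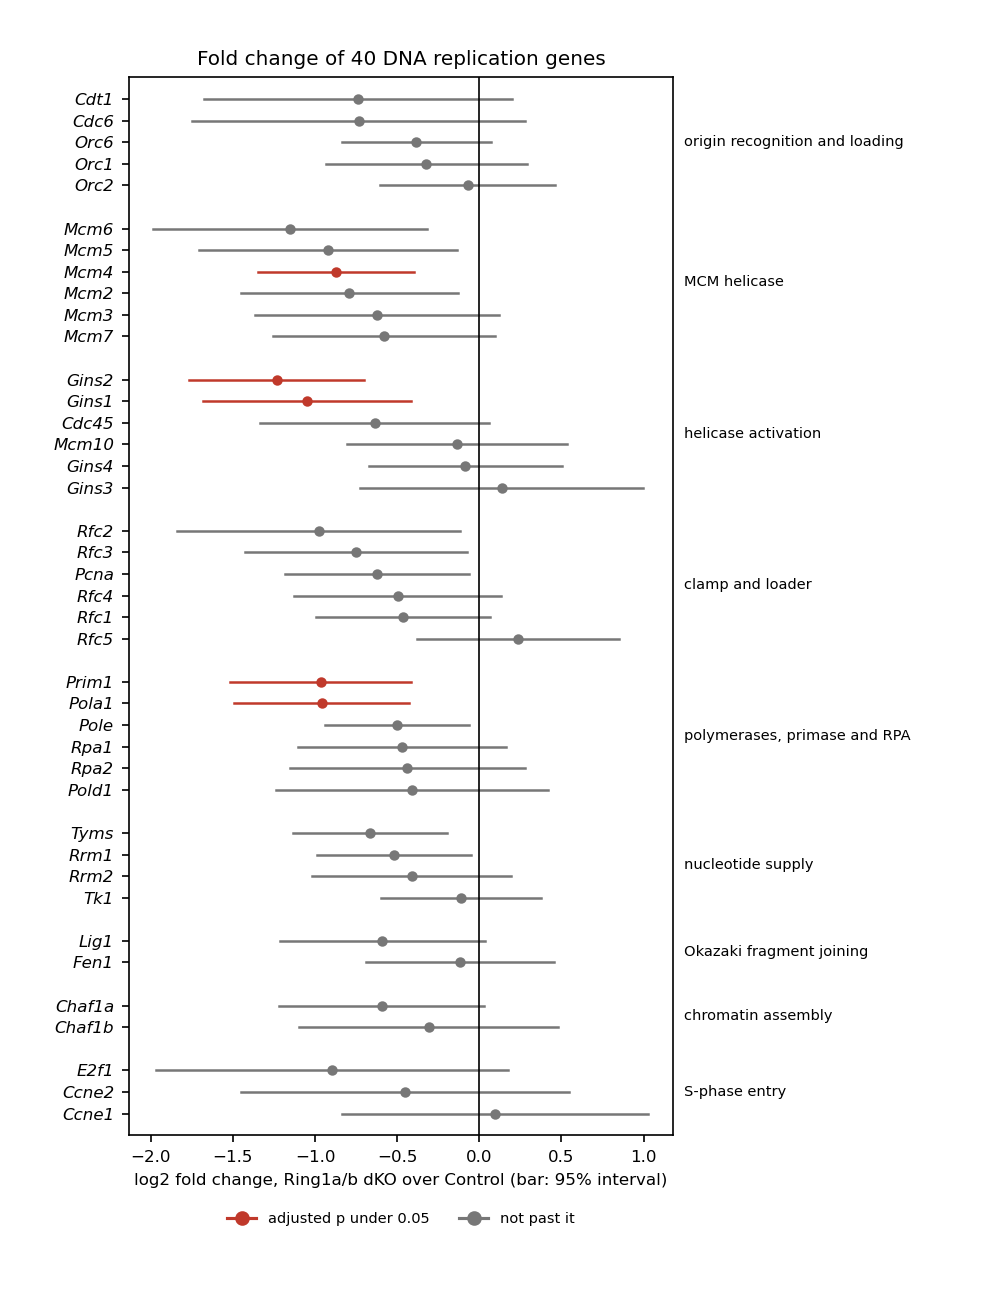
Log2 fold change of each DNA replication gene, dKO-labelled over control-labelled libraries, with its 95% interval from the edgeR fit (n = 3 libraries per group), ordered within role. The 5 genes past an adjusted p of 0.05 (red) lay between -1.23 and -0.87, and 3 genes lay above 0.

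Most further replication factors were also below 0 in log2 fold change. Of 45 such genes 44 were tested, and edgeR called 1 lower and 0 higher, against 2.98% and 7.17% of all tested genes. At an unadjusted p under 0.05, 10 of the 44 were lower and 0 of the 44 higher, against 9.86% and 14.5% of all tested genes. In 13 of the 44 every dKO-labelled library was below every control-labelled one, against 14.8% of all tested genes. DESeq2 called 4 lower and 0 higher (4.42% and 8.47% of all genes in its test). For limma-voom the counts were 2 and 0 (3.22% and 7.35%). The log2 fold change was below 0 in 41 of the 44, with a median of -0.44. The called gene was Slbp, which binds the stem-loop of histone mRNAs in S phase. Slbp had 20.2, 28.1 and 25.6 CPM in K1, K2 and K3, against 36.2, 45.5 and 55.2 CPM in C1, C2 and C3. The groups were apart (log2 fold change -0.89 ± 0.23, SE; adjusted p = 0.0450 in edgeR), and the call was lost without C2, C3, K1, K2 or K3 (edgeR adjusted p = 0.0816 to 0.177). The list's count was 2 without C1, 1 (another gene) without K1 and 0 without C2, C3, K2 or K3.

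Among 25 genes of the E2F, retinoblastoma and cyclin D pathway, which sets S-phase entry, edgeR called 1 higher and 0 lower, against 7.17% and 2.98% of all tested genes. Before adjustment 2 of the 25 were higher and 4 of the 25 lower at p under 0.05, against 14.5% and 9.86% of all tested genes. DESeq2 and limma-voom each called 1 higher, which was also Ccnd1 (8.47% and 7.35% of all genes in their tests). DESeq2 called 2 lower and limma-voom 0 (4.42% and 3.22%). The median log2 fold change of the 25 was -0.17. The called gene was Ccnd1, cyclin D1, the partner of Cdk4 and Cdk6 in G1. Ccnd1 had 498, 434 and 345 CPM in K1, K2 and K3, against 255, 236 and 279.8 CPM in C1, C2 and C3. It rose (log2 fold change 0.73 ± 0.18, SE; adjusted p = 0.0392 in edgeR), and all 3 dKO-labelled libraries were above all control-labelled ones. The call was lost without C1, C2, C3, K1 or K2 (edgeR adjusted p = 0.0597 to 0.142) and, with the GC and length offset, at an edgeR adjusted p of 0.0744.

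Genes of G2 and mitosis were set beside the replication genes, since both mark dividing cells. Of 25 such genes edgeR called 0 in either direction, against 2.98% lower and 7.17% higher over all tested genes. Before adjustment 9 of the 25 were lower and 0 of the 25 higher at p under 0.05, against 9.86% and 14.5% of all tested genes. DESeq2 called 2 lower and 0 higher (4.42% and 8.47% of all genes in its test), and limma-voom 0 in either direction (3.22% and 7.35%). Their median log2 fold change was -0.48, close to the -0.55 of the replication genes, and 24 of 25 were below 0. Mki67, the proliferation antigen Ki-67, had 1465, 1148 and 1016 CPM in K1, K2 and K3, against 3096, 1393 and 1759 CPM in C1, C2 and C3. The groups overlapped, with K1 above C2, and the gene did not pass (edgeR adjusted p = 0.150).

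The libraries were ordered differently by the 2 kinds of genes. G2/M transcripts summed to 4235, 3088 and 2721 CPM in K1, K2 and K3, against 7036, 3600 and 4917 CPM in C1, C2 and C3, so replicate 1 was the highest of each group. For replication transcripts replicate 1 was the lowest of each group. K1 was the lowest dKO-labelled library for 30 of the 40 replication genes and the highest for 21 of the 25 G2/M genes. C1 was the lowest control-labelled library for 28 of the 40 and the highest for 22 of the 25. The ratio of the replication sum to the G2/M sum was 0.256, 0.621 and 0.528 in K1, K2 and K3, against 0.291, 0.621 and 0.514 in C1, C2 and C3. As a description, it differed by replicate number more than by label, and libraries of the same number in the 2 groups had close ratios. Without Mki67, which holds much of the G2/M sum, the ratio was 0.392, 0.989 and 0.843 in K1, K2 and K3, against 0.520, 1.01 and 0.8005 in C1, C2 and C3. The sources used here do not say what a replicate number marks.

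**Figure D4:**
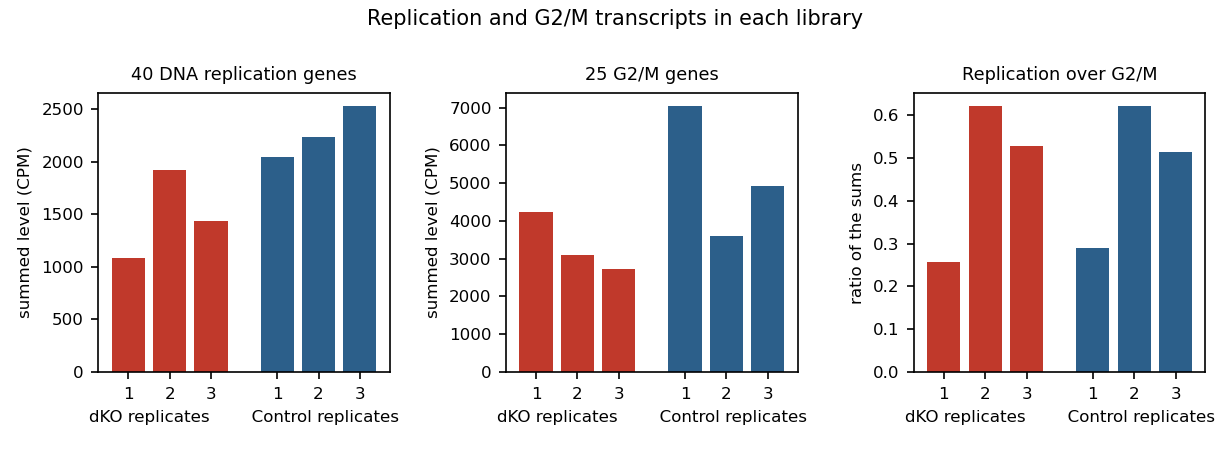
Summed level (CPM) of the 40 DNA replication genes, of 25 G2/M genes, and the ratio of the sums, as bars for each dKO-labelled (red) and control-labelled (blue) library. Replicate 1 of each group had the lowest ratio, at 0.256 in the dKO-labelled and 0.291 in the control-labelled group.

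Markers of epidermal layers and of other cell types were read beside these results. Over all 14890 tested genes edgeR called 2.98% lower and 7.17% higher. The 7 basal keratinocyte markers summed to 27351 to 30946 CPM in dKO-labelled and 32049 to 46780 CPM in control-labelled libraries. Of the 7, 2 fell: Trp63, the regulator of stratified epithelium, and Col17a1, a hemidesmosome collagen. They fell by 0.79 and 0.74 on the log2 scale (adjusted p = 0.0176 and 0.0278 in edgeR). The other basal markers were not called, with log2 fold changes from -1.07 (Krt15) to 0.25 (Itgb4). The 7 suprabasal markers in the files summed to 1808 to 4484 CPM in dKO-labelled and 2347 to 5276 CPM in control-labelled libraries. Of the 7, 1 was called, Krtdap, which rose by 0.96 on the log2 scale (adjusted p = 0.0246 in edgeR). The other suprabasal markers were not called and went both ways, with log2 fold changes from -0.54 (Krt1) to 0.96 (Sbsn). The calls of Trp63, Col17a1 and Krtdap were each lost without C2, C3, K2 or K3 (edgeR adjusted p = 0.0560 to 0.111). The sums of 6 fibroblast markers (435 to 728 CPM in dKO-labelled, 245 to 791 CPM in control-labelled libraries), 5 immune markers (36.0 to 147 and 77.8 to 172 CPM), 5 melanocyte markers (10.3 to 19.98 and 9.37 to 10.4 CPM), 3 endothelial markers (7.67 to 32.1 and 6.51 to 40.5 CPM) and 3 Schwann cell markers (1.70 to 6.47 and 2.94 to 8.29 CPM) overlapped, and none of their tested genes was called by edgeR. Only 2 of the 5 immune and 3 of the 5 melanocyte markers were tested. Of these, Dct and Tyrp1 were higher in every dKO-labelled library, with log2 fold changes of 1.55 and 3.99 (edgeR adjusted p = 0.128 and 0.0651). Tyrp1 was at 2.47 CPM or less in every library. Pmel, at 0.28, overlapped between the groups. The 7 hair follicle markers summed to 171 to 522 CPM in dKO-labelled and 112 to 391 CPM in control-labelled libraries. Of 6 tested, Krt25, Krt27 and Krt71 were called lower, and the others were not called and went both ways. Lhx2 had 58.2 to 64.5 CPM in dKO-labelled and 11.2 to 53.2 CPM in control-labelled libraries (edgeR adjusted p = 0.194). Sox9 and Shh had log2 fold changes of 0.50 and -2.16, with overlapping groups. The 5 Merkel cell markers summed to 24.4 to 74.4 CPM in dKO-labelled and 0.612 to 2.63 CPM in control-labelled libraries, with Krt18 and Isl1 called higher. Most of the dKO-labelled sum was Krt18, at 67.5, 25.4 and 19.8 CPM in K1, K2 and K3. Krt8 and Krt20 were at 2.18 CPM or less in every library, overlapped between the groups and were not tested. The defining factor Atoh1, also not tested, was at 0.154 CPM or less in dKO-labelled and 0.342 CPM or less in control-labelled libraries. The 3 erythroid markers in the files had no count. The part of these shifts in the result for the replication genes was not tested.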

How the data were processed

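RNA was measured in 6 libraries, 3 labelled dKO and 3 labelled control. Per the labels' protocols, RNA of the sorted cells was amplified with the Ovation V2 kit and sequenced as single reads. The authors deposited raw counts per gene symbol, 1 file per library. Per the submitters' processing notes, HTSeq 0.6.1, TopHat2 2.0.13, DESeq2 1.6.3 and Cufflinks 2.2.1 were used with mm10, while the annotation and the strand setting are not given in the sources used here. Genes that overlap may therefore share reads, and 16 of the 40 members share annotated exonic bases with another gene.

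From these counts, edgeR 4.0.16 (R 4.3.3) gave the main result: TMM scaling, filterByExpr (minimum count 10, minimum total 15), the quasi-likelihood F test (two-sided, without covariates), prior count 0.125, and Benjamini-Hochberg adjustment over all 14890 tested genes at 0.05. The fit was tested on simulated data. CPM were scaled by TMM library sizes, and levels per kb used the principal transcript. After ± stand the SD over 3 libraries (CPM) or the SE from the model (log2 fold changes). A count of 3, taken as the floor, equals 0.0975 to 0.154 CPM, and the members had 84 to 6888 counts per library. Counting error enters at every level and not only at such floors, and reads were counted without molecular identifiers. The 18 alternatives included DESeq2 1.42.0, limma-voom (limma 3.58.1), other scalings and filters, a GC and length offset, Xist level as a covariate, subsets of replicates and each library left out. No pair of libraries agreed within sampling noise. Promoters came from RefSeq tables and gene positions from GENCODE on GRCm38.

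Every member is accounted for. Beyond the members the text names genes called in a further list, the G2/M gene of highest mean level and other subunits of polymerase alpha-primase. The text also names genes that share exons with a member, the targeted genes Ring1 and Rnf2, Xist, and cell type markers. Of the named markers Krt5, Krt15, Itgb4, Krt1, Sbsn, Lhx2, Sox9, Shh, Dct, Tyrp1 and Pmel were not called, and Atoh1, Krt8 and Krt20 were not tested. The members and lists were chosen with earlier results of these data known.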

Additional observations from a re-analysis of the deposited data

How the results depend on the processing

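The counts of called genes depended on which libraries entered and on the test. Over all genes, 877 were lower and 1683 higher with DESeq2, 85 and 354 with replicates 1 and 2 alone, 1061 and 1633 with replicates 2 and 3 alone, 174 and 636 where Xist was a covariate, and 701 lower with the GC and length offset. With 1 library left out, 174 to 436 genes were lower and 630 to 957 higher. Of the 40 replication genes 3 were lower with library size alone, 1 where Xist was a covariate, 0 with replicates 1 and 2 alone (3 at an unadjusted p under 0.05 in edgeR), and 0 to 4 with 1 library left out, while 0 were higher in all 18 alternatives. Their median log2 fold change stayed below 0 throughout, from -0.80 without K2 to -0.36 without K1. Gins2 was called in 16 of the 18 alternatives, Mcm4 in 12, Pola1 in 11, Prim1 in 10 and Gins1 in 8.

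Of the further replication factors, 0 were lower with library size alone, the Xist covariate or replicates 1 and 2 alone, 2 with limma-voom, with the replicate block and with the GC and length offset, 4 with DESeq2, 7 with replicates 2 and 3 alone, and 0 to 2 with 1 library left out. Of the E2F pathway genes, 1 was lower with library size alone, with no count filter and with the replicate block, 2 with DESeq2 and the GC and length offset, and 4 with replicates 2 and 3 alone. In the other direction 0 were higher with the replicate block, replicates 1 and 2 alone, the Xist covariate or the GC and length offset, and 2 with replicates 2 and 3 alone. With 1 library left out 0 to 1 were lower and 0 to 1 higher. Of the G2/M genes, 1 was lower with library size alone, no count filter and the replicate block, 2 with DESeq2 and the GC and length offset, 5 with replicates 2 and 3 alone, and 0 to 2 with 1 library left out. Of all genes, 2.86% were lower with library size alone, 2.68% with no count filter and 2.92% with the replicate block. The lower share was 4.42% with DESeq2, 3.22% with limma-voom, 4.71% with the GC and length offset and 7.10% with replicates 2 and 3 alone. With 1 library left out it ran from 1.13% to 2.85%. Called higher were 6.82% with the replicate block and 10.9% with replicates 2 and 3 alone. The cause of the shifts in the counts was not tested.

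Signs turned for members with log2 fold changes near 0. With replicates 1 and 2 alone the value was 0.15 for Mcm10, 0.17 for Orc2, 0.014 for Gins4 and 0.085 for Fen1. With replicates 2 and 3 alone Gins4 was at 0.086. The GC and length offset put Orc2 at 0.031 and Ccne1 at -0.020, and the Xist covariate put Gins3 at -0.020. With 1 library left out, Mcm10 ran from -0.30 to 0.12, Orc2 from -0.20 to 0.072, Gins3 from -0.033 to 0.36, Gins4 from -0.32 to 0.13, Tk1 from -0.22 to 0.054, Fen1 from -0.24 to 0.093 and Ccne1 from -0.19 to 0.34.

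The replicate numbers were not taken to pair the samples. Deviations of same-numbered samples from the group means correlated at 0.186, 0.261 and 0.0768 for numbers 1 to 3, and each sample correlated best with its own number, a hint from the data. With the replicate number as a block 5 members were lower (435 of all 14890 genes), Gins2, Mcm4, Mcm5, Pola1 and Prim1, while Gins1 was not called (log2 fold change -1.07, edgeR adjusted p = 0.0595). At an unadjusted p under 0.05 in edgeR, 22 of the 40 members were lower with the block, beside 1581 of all 14890 genes.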

Other observations

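Within a complex, the subunits at the ends of the range of levels per length were not always the same in both groups, a description of transcripts and not of proteins. The highest and lowest MCM subunits differed 2.33-fold in dKO-labelled libraries (Mcm4 and Mcm5) and 2.54-fold in control-labelled libraries (Mcm6 and Mcm5). For GINS the factor was 13.4 in dKO-labelled and 15.6 in control-labelled libraries, between Gins4 and Gins3 in both. For the clamp loader it was 5.08 in dKO-labelled libraries (Rfc1 and Rfc2) and 4.70 in control-labelled libraries (Rfc1 and Rfc5), and for polymerase alpha-primase 2.76 in dKO-labelled libraries (Prim1 and Pola1) and 2.96 in control-labelled libraries (Prim1 and Prim2). The ratio of Rfc2 to Rfc5 was 0.618, 1.12 and 1.21 in K1, K2 and K3, against 3.59, 1.83 and 1.94 in C1, C2 and C3.

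By role, the sum of the 6 MCM subunits was 219, 487 and 381 CPM in K1, K2 and K3, against 569, 647 and 743 CPM in C1, C2 and C3, or 55.5% of the control-labelled mean. Those of the other roles lay between 64.3% (polymerases, primase and RPA) and 74.3% (origin recognition and loading). For the joining, chromatin assembly and S-phase entry genes the sums of the groups overlapped.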
